A study of Mus musculus with 4 samples.

Results

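The NRF2 antioxidant genes were followed in murine neural stem/progenitor cells (NSPCs) exposed to PJ34, an inhibitor of the poly(ADP-ribose) polymerases (PARPs). The group held 10 genes chosen by name, *Nfe2l2*, *Keap1*, *Nqo1*, *Hmox1*, *Gclc*, *Gclm*, *Gsr*, *Txnrd1*, *Srxn1* and *Prdx1*, and these were read by 13 of the 55681 probes of the array. *Hmox1*, *Gsr* and *Prdx1* had 2 probes each and the other genes 1 each. By the labels the cells came from the brains of Slc:ICR mouse embryos at embryonic day 13.5, either wild-type or Trp53-/-, the latter lacking the gene for the tumour suppressor p53 and bred from heterozygous carriers. All cultures were set up by suspending dissociated cells in a neurosphere medium with B-27, EGF and FGF-basic, and each was either left untreated or treated with 20 μM PJ34. The time between the addition of PJ34 and RNA extraction for the arrays, and whether embryos were pooled, were not given in the sources used here. Each of the 4 arrays paired RNA of a treated culture, labelled with Cy5, with RNA of an untreated culture of the same genotype, labelled with Cy3. There were 2 arrays per genotype, and the dyes were never swapped.

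NRF2, the product of *Nfe2l2*, is a transcription factor that turns on genes against oxidants and electrophiles. In unstressed cells KEAP1 holds NRF2 in the cytoplasm and hands it to a ubiquitin ligase for degradation, and oxidation of KEAP1 cysteines lets NRF2 accumulate and bind antioxidant response elements in the promoters of its targets. These targets make glutathione, keep thioredoxins and peroxiredoxins reduced, and detoxify quinones and heme. PARP1, the main target of PJ34, consumes NAD+ at DNA breaks, and p53 has antioxidant targets of its own, among them the sestrins, which help to restore oxidized peroxiredoxins. The question put to the arrays here was whether the NRF2 genes responded to PJ34, whether that response depended on *Trp53*, and whether their untreated levels differed between the genotypes.

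The arrays were first checked for their labels and for the cells they held. The control channel was well above background for between 21506 and 24536 probes and the PJ34 channel for between 26078 and 27157. On the log2 scale the untreated level of *Trp53* was 8.28 and 8.51 on the wild-type arrays and 7.56 and 7.82 on the Trp53-/- arrays, well above background on each, and the sources do not say whether its probe lies in the deleted part. *Cdkn1a*, a direct p53 target, had log2 ratios of PJ34 over control of 1.84 and 1.23 in wild-type and -0.48 and -0.74 in Trp53-/-. Trp53-/- replicate 2 stood apart. There the Y-linked genes *Ddx3y* and *Eif2s3y* had log2 ratios of 3.12 and 4.22 and *Xist* -1.39, so its treated and untreated cultures differed in sex-linked RNA. In the control channel both genes were well above background on both wild-type arrays (8.25 and 8.06 for *Ddx3y*, 8.96 and 8.47 for *Eif2s3y*) and on neither Trp53-/- array, so the sex of the untreated cells and their genotype cannot be told apart. All 10 NSPC markers were well above background in the control channel of every array, against 6 of 7 neuronal, 4 of 5 astrocyte, 6 of 6 oligodendrocyte, 2 of 7 microglial and macrophage, 1 of 4 endothelial, 0 of 3 erythroid and 0 of 4 mesenchymal markers. The summed untreated log2 level of the oligodendrocyte markers was 11.1 to 11.8 in wild-type and 13.2 to 13.3 in Trp53-/-, and that of the endothelial markers 13.0 to 13.1 and 11.7 to 11.8. Of the endothelial markers only *Kdr* was well above background in any control channel. The neuronal sum was 12.9 to 13.3 in wild-type and 12.7 to 12.8 in Trp53-/-, and the microglial and macrophage sum 12.6 to 12.8 and 12.0 to 12.2. Most single neuronal markers did not follow their sum. Of 6 tested in untreated cells, 4 were higher in Trp53-/- and 2 lower, with a median log2 difference of 0.63. The NSPC and astrocyte sums overlapped between genotypes. Single astrocyte markers still differed. Of 5 tested in untreated cells, *Aqp4*, *Gfap* and *S100b* were higher in Trp53-/- and 2 were lower, with a median log2 difference of 0.66. These 3 passed the test of untreated levels described below, as did 9.33% of all genes. Fewer cells of a type and less RNA per cell cannot be told apart in these bulk samples.

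In wild-type NSPCs, 1 of the 10 NRF2 genes changed with PJ34. *Txnrd1*, the cytosolic thioredoxin reductase, fell by 0.32 on the log2 scale. A change was called at a Storey's *q* below 0.05 in limma's moderated test of the mean log2 ratio against 0, fitted over all 20224 genes tested. The background was high, since 24.8% of all genes passed this test, 13.6% upwards and 11.3% downwards, and 1 of 10 lies below it. None of the 10 genes was more than 2-fold changed, the criterion stated in the study's methods together with *p* and *q* below 0.05, which 0.499% of all genes met, while 2 of the 10 had an unadjusted *p* below 0.05, as did 31.8% of all genes. The median log2 ratio of the 10 genes was -0.09, beside 0.03 over all genes tested. The 95% confidence interval of each of the 10 lay within a 2-fold change in either direction, and the widest bound, that of *Txnrd1*, was a log2 ratio of -0.53. For *Nqo1* this cannot exclude a 2-fold change, since it was near background, where the offset of the background correction draws ratios toward 0. Its wild-type value ran from -0.48 to 0.06 over the ways of processing.

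In Trp53-/- NSPCs, 4 of the 10 genes fell with PJ34 and none rose. *Srxn1*, which encodes sulfiredoxin, the enzyme that reduces overoxidized peroxiredoxins, fell by 0.79 on the log2 scale, *Txnrd1* by 0.37, *Nfe2l2* by 0.36 and *Hmox1* by 0.34. In the same fit 23.3% of all genes tested passed at *q* below 0.05, 12.8% upwards and 10.5% downwards, against 4 of 10 downwards here. No member passed the 2-fold criterion, which 0.361% of all genes met. The median log2 ratio of the 10 genes was -0.16, beside 0.03 over all genes. Of these 4 falls, that of *Srxn1* kept *q* below 0.05 when either Trp53-/- array was left out.

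**Figure D1:**
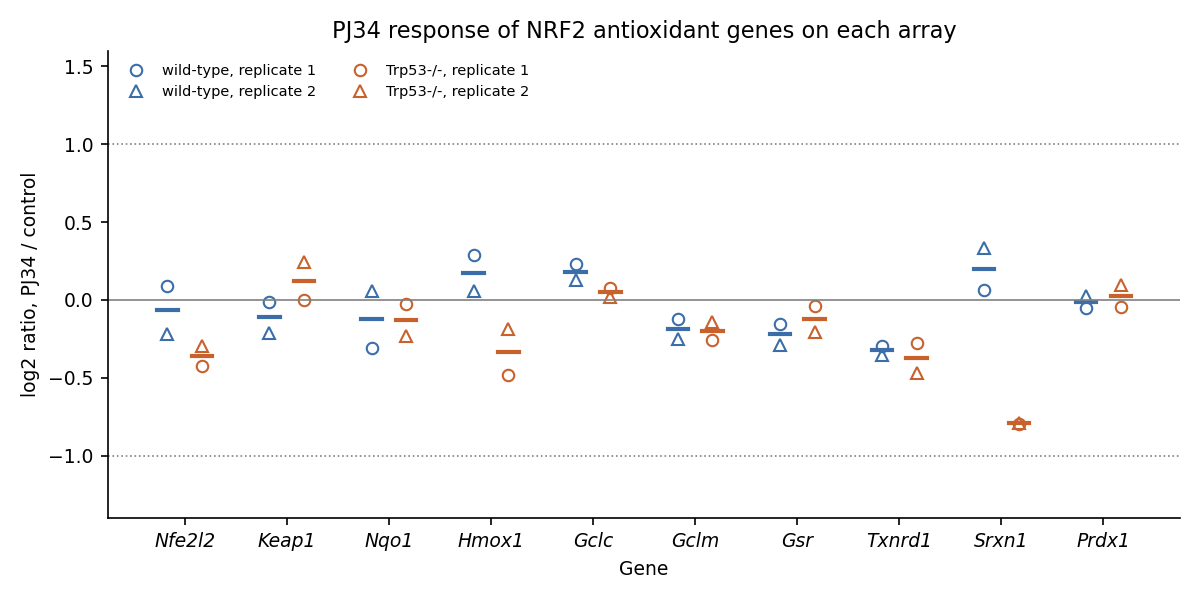
Log2 ratio of PJ34 over control (vertical axis) for each of the 10 NRF2 antioxidant genes (horizontal axis) on the 4 arrays, after loess normalization; circles are replicate 1, triangles replicate 2, short bars the mean of each genotype (n = 2), and dotted lines mark a 2-fold change. *Srxn1* lies at -0.79 on both Trp53-/- arrays and above 0 on both wild-type arrays, and under median centring its Trp53-/- mean was 0.05, where the median of all genes was 0.63.

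The size of these values depends on how the dyes were balanced. The loess curve used here removes dye bias that varies with brightness and put the median log2 ratio of all genes at 0.03 in both genotypes. Centring each array on the median of all its probes, including those at background, moved the all-gene median to 0.46 in wild-type and 0.63 in Trp53-/-. On that scale 9 of the 10 members in wild-type and 8 in Trp53-/- were higher with *q* below 0.05, as were most genes on the array. Their median was then 0.55 in wild-type and 0.54 in Trp53-/-, which is 0.10 and -0.09 relative to the median of all genes. The value relative to all genes is therefore given below beside each member's change that was called in the fit over genes. For the members not called, it ran in wild-type from -0.47 (*Nqo1*) to 0.37 (*Srxn1*). In Trp53-/- it ran from -0.67 (*Nqo1*) to 0.42 (*Prdx1*).

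*Nfe2l2* and *Keap1*, the transcription factor and its inhibitor, are the regulators of the group. The log2 ratios of *Nfe2l2* were 0.09 and -0.22 on the wild-type arrays and -0.43 and -0.30 on the Trp53-/- arrays. The wild-type arrays lay on both sides of 0 and the Trp53-/- arrays both below them. Its mean was -0.06 ± 0.10 (SE; *q* = 0.366) in wild-type and -0.36 ± 0.10 (*q* = 0.0189) in Trp53-/-, a 1.28-fold lower level that turned to a log2 ratio of 0.49 with median centring and was then -0.13 relative to all genes. Without Trp53-/- replicate 1 the value was -0.30 (*q* = 0.150) and without replicate 2 it was -0.43 (*q* = 0.0892), so the call needed both arrays. *Keap1* gave ratios (log2) of -0.01 and -0.21 on the wild-type arrays and of -0.0026 and 0.24 in Trp53-/-. Its means of -0.11 (*q* = 0.251) and 0.12 (*q* = 0.221) had opposite signs and neither passed the test.

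*Nqo1*, a quinone reductase, and *Hmox1*, the inducible heme oxygenase, are commonly used as readouts of NRF2 activity. *Nqo1* was near background, its control channel being well above it on 2 of 4 arrays and its PJ34 channel on all 4. Its log2 ratios of -0.31 and 0.06 in wild-type and -0.03 and -0.23 in Trp53-/- overlapped between genotypes, and both means were -0.13 (*q* = 0.241 and 0.224). *Hmox1* gave ratios (log2) of 0.29 and 0.05 on the wild-type arrays and of -0.48 and -0.19 in Trp53-/-. The genotypes did not overlap, with wild-type above 0 and Trp53-/- below it.

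The wild-type mean of *Hmox1* was 0.17 (*q* = 0.153) and the Trp53-/- mean -0.34 ± 0.10 (SE; *q* = 0.0276), which became 0.49, or -0.14 relative to all genes, with median centring. The Trp53-/- call was lost without replicate 1 (-0.19, *q* = 0.277) and without replicate 2 (-0.48, *q* = 0.0517). A second *Hmox1* probe gave the same order, 0.16 and 0.34 in wild-type and -0.25 and -0.32 in Trp53-/-. Read by itself in a fit over all probes, it was at 0.25 (*q* = 0.0493) in wild-type and -0.29 (*q* = 0.0321) in Trp53-/-.

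*Gclc* and *Gclm* encode the catalytic and the modifier subunit of glutamate-cysteine ligase, which catalyses the rate-limiting step of glutathione synthesis, and *Gsr* encodes the reductase that regenerates glutathione. None of these genes passed the test in either genotype. *Gclc* gave ratios (log2) of 0.23 and 0.12 on the wild-type arrays and of 0.08 and 0.02 in Trp53-/-, the only member above 0 on all 4 arrays. *Gclm* was at -0.12 and -0.25 in wild-type and at -0.26 and -0.14 in Trp53-/-, and its means of -0.19 (*q* = 0.0999) and -0.20 (*q* = 0.0840) were nearly equal. *Gsr* was at -0.15 and -0.29 in wild-type and at -0.04 and -0.21 in Trp53-/-. Its second probe, which lies beside the first on the chromosome, was at -0.31 and -0.40 in wild-type, a mean of -0.35 (*q* = 0.0148) where the first probe gave -0.22 (*q* = 0.0692), so the 2 probes fell on either side of the threshold.

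*Txnrd1*, *Srxn1* and *Prdx1* belong to the thioredoxin and peroxiredoxin branch. *Txnrd1* gave ratios (log2) of -0.29 and -0.35 on the wild-type arrays and of -0.28 and -0.47 in Trp53-/-. All 4 arrays were below 0 and the genotypes overlapped. It fell by 0.32 (SE 0.09; *q* = 0.0189) in wild-type and by 0.37 (SE 0.09; *q* = 0.0115) in Trp53-/-, and with median centring it was at 0.37 and 0.59, or -0.09 and -0.04 relative to all genes. The wild-type call was lost without either wild-type array (*q* = 0.0734 and 0.125) and the Trp53-/- call without replicate 2 (-0.28, *q* = 0.207). *Prdx1*, an abundant cytosolic peroxiredoxin, was at -0.05 and 0.03 in wild-type and at -0.05 and 0.10 in Trp53-/-, with means of -0.01 and 0.03.

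*Srxn1* gave the clearest separation. Its log2 ratios were 0.06 and 0.34 in wild-type and -0.79 and -0.79 in Trp53-/-. Both wild-type arrays were above 0 and both Trp53-/- arrays far below, with no overlap. The wild-type mean was 0.20 ± 0.10 (SE; *q* = 0.0978), and the Trp53-/- mean was -0.79 ± 0.10 (*q* = 0.000538; 95% confidence interval -1.01 to -0.58), a 1.73-fold lower level under PJ34 that became 0.05 (*q* = 0.210) with median centring, or -0.57 relative to all genes. Without Trp53-/- replicate 2 the value was -0.79 (*q* = 0.00571) and without replicate 1 it was also -0.79 (*q* = 0.00362). *Srxn1* was read by 1 probe, at chr2:151937009-151937068 of the mouse build mm9 by the array files.

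The promoters of *Srxn1*, of the other members that fell in Trp53-/- and had an entry, and of *Prdx1* are shown because NRF2 acts through a short motif in such regions. They were taken from RefSeq on build GRCm38.p6 and run from 250 bases before to 50 bases after a transcription start, written 5′ to 3′ on the strand of the gene. Of the 10 members, 7 had an entry, and *Hmox1*, *Gclc* and *Gsr* had none. Capitals mark matches on either strand to the core of the antioxidant response element, TGACNNNGC, and to the AP-1 site TGACTCA, which can share letters. *Srxn1* lies at chr2:152105274-152105573 on the + strand, *Prdx1* at chr4:116685349-116685648 on the + strand, *Nfe2l2* at chr2:75704614-75704913 on the - strand, and the *Txnrd1* start with a match, 1 of 3 listed, at chr10:82858956-82859255 on the + strand.
Srxn1: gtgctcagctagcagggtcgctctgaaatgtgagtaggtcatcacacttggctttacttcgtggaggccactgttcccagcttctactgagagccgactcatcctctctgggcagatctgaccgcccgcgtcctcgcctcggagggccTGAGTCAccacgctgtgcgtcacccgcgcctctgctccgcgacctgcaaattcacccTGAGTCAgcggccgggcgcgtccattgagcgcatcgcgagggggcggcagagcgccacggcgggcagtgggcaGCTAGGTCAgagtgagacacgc
Prdx1: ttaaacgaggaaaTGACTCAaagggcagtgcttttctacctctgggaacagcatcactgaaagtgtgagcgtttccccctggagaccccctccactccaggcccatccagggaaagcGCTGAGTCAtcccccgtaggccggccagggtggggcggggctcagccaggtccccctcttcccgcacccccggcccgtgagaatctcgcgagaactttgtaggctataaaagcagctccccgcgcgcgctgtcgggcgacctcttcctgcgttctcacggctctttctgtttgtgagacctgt
Nfe2l2: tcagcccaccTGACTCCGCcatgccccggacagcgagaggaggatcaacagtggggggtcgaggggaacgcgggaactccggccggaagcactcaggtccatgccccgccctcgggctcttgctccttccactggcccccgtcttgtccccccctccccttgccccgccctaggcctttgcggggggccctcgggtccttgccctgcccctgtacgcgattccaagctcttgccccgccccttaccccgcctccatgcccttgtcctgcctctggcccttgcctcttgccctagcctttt
Txnrd1: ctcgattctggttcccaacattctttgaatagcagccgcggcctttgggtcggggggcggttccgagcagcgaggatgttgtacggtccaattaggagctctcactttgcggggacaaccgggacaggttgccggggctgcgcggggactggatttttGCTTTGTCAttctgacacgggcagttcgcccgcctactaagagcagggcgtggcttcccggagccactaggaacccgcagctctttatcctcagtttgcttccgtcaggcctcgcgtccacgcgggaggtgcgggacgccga

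The *Srxn1* promoter held 2 AP-1 sites, which begin at positions -102 and -45 from the start, and 1 match to the response element core after the start. The *Prdx1* promoter held the 2 motifs in 1 overlapping match and a further AP-1 site upstream. *Gclm* had 1 match to the core, and the *Keap1* and *Nqo1* windows had no match to either motif. The 7 members with an entry had 9 listed promoters, of which 5 held the core and 2 the AP-1 site, while over all 32851 promoters listed 12.4% held the core and 5.2% the AP-1 site. *Srxn1* and *Prdx1* were the members with both, and their PJ34 responses in Trp53-/- were -0.79 and 0.03. A match is a stretch of letters, not a measured binding site.

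The PJ34 response was then compared between genotypes in the same fit, by subtracting the Trp53-/- mean from that of wild-type. A dye bias of a single probe cancels in this difference. Of the 10 members, *Srxn1* passed at *q* below 0.05, where 1.76% of all genes passed, 1.28% with wild-type higher and 0.475% with it lower. Its log2 difference was 0.99 ± 0.14 (SE; *q* = 0.00653; 95% confidence interval 0.68 to 1.30), a 1.99-fold difference between the genotypes. It stood just under the 2-fold criterion, which 0.475% of all genes also passed and none of the members did. The difference had the same sign under all 17 ways of processing tried, from 0.77 to 1.13, and *q* was below 0.05 in 14 of them. It did not pass with a smaller offset in the background correction (1.01, *q* = 0.0760), with the log ratios of the scanner software (1.01, *q* = 0.230) or with median centring (0.77, *q* = 0.278). With the scanner software's log ratios limma called 0 of all 20224 genes at *q* below 0.05, and 2339 had an unadjusted *p* below 0.05. Without Trp53-/- replicate 2 it was 0.99 (*q* = 0.0177), and over the 4 fits that left out 1 array it ran from 0.85 to 1.13. The summed oligodendrocyte markers that separated the genotypes in untreated cells also moved with PJ34 in Trp53-/-, where 4 of 6 fell and their median log2 ratio was -0.33, beside 0.02 in wild-type, and their part in the *Srxn1* result was not tested.

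**Figure D2:**
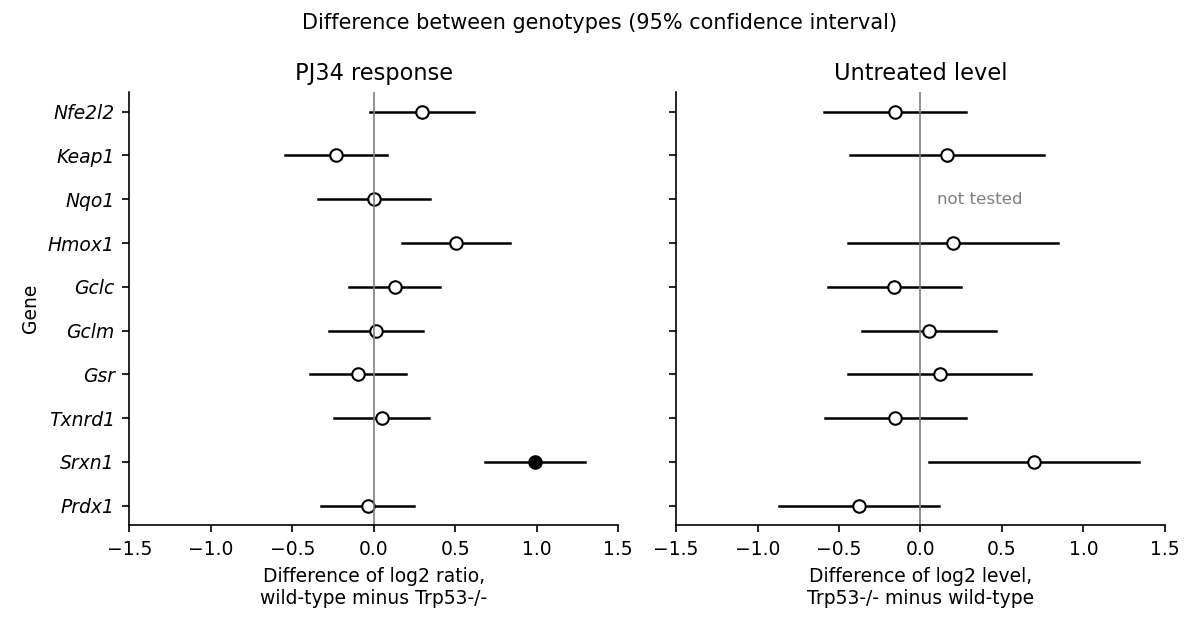
Difference between genotypes for each gene (vertical axis) in the PJ34 response, wild-type minus Trp53-/- (left, horizontal axis in log2 ratio), and in the untreated level, Trp53-/- minus wild-type (right, horizontal axis in log2 level). Circles are the estimates (n = 2 arrays per genotype), lines the 95% confidence intervals, and the filled circle has *q* below 0.05. *Srxn1* is the filled circle at 0.99 on the left, and the interval of every other member except *Hmox1* reaches 0 on the left. *Nqo1* was not tested on the right.

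*Hmox1* came next, with a difference of 0.51 (SE 0.15; 95% confidence interval 0.18 to 0.84; *q* = 0.104), and its second probe gave 0.54 (*q* = 0.0692). It passed without wild-type replicate 2 (0.62, *q* = 0.0437). *Nfe2l2* followed at 0.30 (*q* = 0.282). In 5 of the 10 members, *Nfe2l2*, *Keap1*, *Hmox1*, *Gclc* and *Srxn1*, the arrays of the genotypes did not overlap, and in 4 of these wild-type was higher. Over all genes 45.1% did not overlap, 21.3% with wild-type higher and 23.9% with it lower, so 5 of 10 is close to the background. The median difference of the 10 members was 0.03, beside -0.01 over all genes. For *Nqo1*, *Gclm*, *Gsr*, *Txnrd1* and *Prdx1* the estimates lay between -0.10 and 0.05 and their 95% confidence intervals between -0.39 and 0.35. A 2-fold difference thus lay outside the intervals of *Gclm*, *Gsr*, *Txnrd1* and *Prdx1*. The interval of *Nqo1* cannot exclude one, since it was near background, where the offset of the background correction draws ratios toward 0.

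In untreated NSPCs none of the 9 members tested differed between Trp53-/- and wild-type at *q* below 0.05 in limma's test of the control channel, where 9.33% of the 17242 genes tested did, and 1 of the 9 had an unadjusted *p* below 0.05, as did 24.9% of all genes. That share depended on single arrays, being 43.8% and 55.1% without wild-type replicate 1 or 2 and 0.493% and 0.244% without Trp53-/- replicate 1 or 2. *Nqo1* was not tested, its control channel not being well above background on both arrays of a genotype. None passed the 2-fold criterion, which 4.68% of all genes met. The member with the smallest *p* was *Srxn1*, with untreated log2 levels of 10.10 and 10.76 in wild-type and of 10.98 and 11.27 in Trp53-/-. These control values are also the denominators of its PJ34 ratios, so this comparison is not separate from that of the PJ34 response. The Trp53-/- arrays were both above the wild-type arrays, which lay further from each other than the Trp53-/- arrays did. The difference, Trp53-/- minus wild-type, was 0.70 ± 0.27 (SE; 95% confidence interval 0.05 to 1.34; *q* = 0.0971). It passed with the replicate number as a block (0.70, *q* = 0.0394), though the numbers were not taken as pairs, and it depended on wild-type replicate 2, without which it was 1.03 (*q* = 0.000440), while it was 0.37 (*q* = 0.0514) without wild-type replicate 1.

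*Prdx1* had untreated levels of 14.30 and 13.96 in wild-type and of 13.85 and 13.65 in Trp53-/-, a difference of -0.38 (*q* = 0.170) that its second probe gave as -0.39. The untreated levels of *Gclc* were close within each genotype, 10.83 and 10.82 in wild-type and 10.67 and 10.65 in Trp53-/-, a difference of -0.16 (*q* = 0.336). In 5 of the 9 members, *Gclc*, *Gclm*, *Txnrd1*, *Srxn1* and *Prdx1*, the arrays did not overlap between genotypes, and in 57.2% of all genes likewise. *Keap1* spread over 10.95 and 11.58 in wild-type and lay at 11.40 and 11.45 in Trp53-/-, between the wild-type values. The median difference of the 9 members was 0.05, beside 0.01 over all genes. Without wild-type replicate 2, 4 of the 9 members passed, *Keap1* (0.47), *Hmox1* (0.56), *Srxn1* (1.03) and *Prdx1* (-0.55), in a fit where the lone wild-type array was assumed to vary like the Trp53-/- arrays and 55.1% of all genes passed.

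The 4 conditions were also set in order of level. The mean log2 level of *Srxn1* was 11.13 ± 0.20 (SD, n = 2) in untreated Trp53-/- cells, 10.63 ± 0.66 in wild-type cells with PJ34, 10.43 ± 0.47 in untreated wild-type cells and 10.33 ± 0.21 in Trp53-/- cells with PJ34. Neighbours in this order overlapped, while the untreated and treated Trp53-/- cultures at its ends did not. The treated cultures overlapped between genotypes, at 10.16 and 11.09 in wild-type and 10.19 and 10.48 in Trp53-/-. The levels of *Hmox1* overlapped between all neighbours, from 10.54 ± 0.08 in untreated Trp53-/- cells to 10.21 ± 0.29 in treated ones. *Nfe2l2* was lowest in treated Trp53-/- cells, at 10.72 ± 0.23, and these did not overlap with the next condition, untreated Trp53-/- cells at 11.08 ± 0.14. *Txnrd1* was higher in the untreated than in the treated cells of each genotype, at 13.12 ± 0.11 and 12.79 ± 0.15 in wild-type and 12.96 ± 0.11 and 12.59 ± 0.03 in Trp53-/-.

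**Figure D3:**
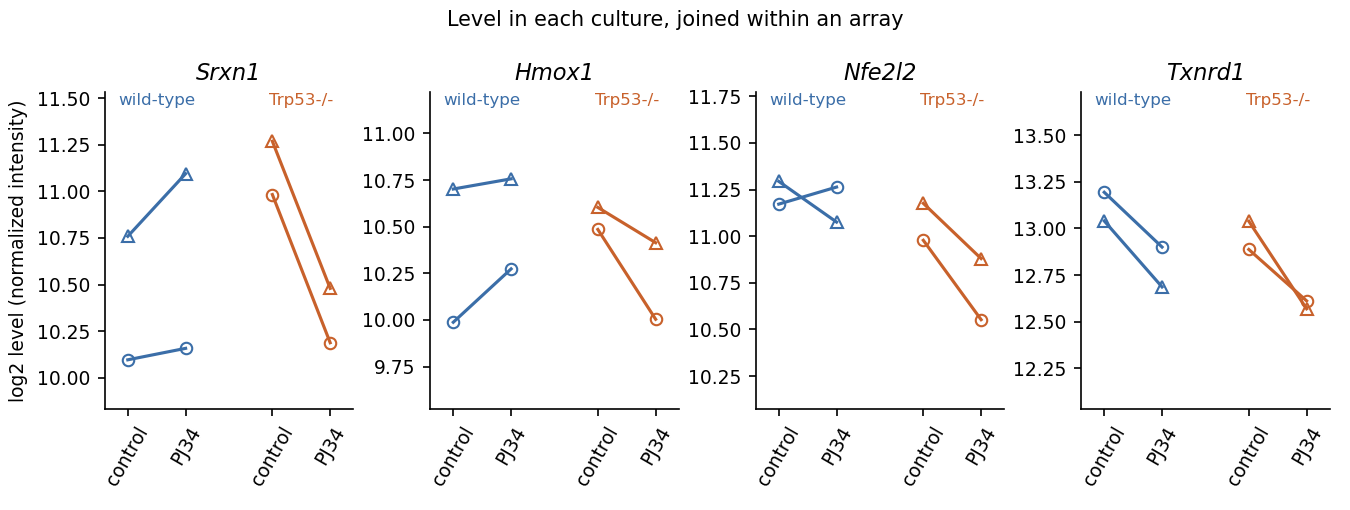
Log2 level (normalized intensity, vertical axis) of *Srxn1*, *Hmox1*, *Nfe2l2* and *Txnrd1* in untreated (control) and PJ34-treated cultures of both genotypes (horizontal axis), with the cultures of an array joined by a line; circles are replicate 1 and triangles replicate 2, and every panel spans the same number of log2 units. The *Srxn1* lines fall steeply in Trp53-/- from untreated levels of 10.98 and 11.27, above both wild-type levels; under median centring the mean ratio behind these lines was 0.05, below the all-gene median of 0.63.

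Among the 5 genes whose log2 ratios over the 4 arrays lay closest to those of *Srxn1*, by Euclidean distance, were *Ddc* (distance 0.28), *Tcim* (0.32), an unnamed long noncoding RNA probe (0.33) and *Fosl2* (0.34). *Ddc* encodes the decarboxylase that makes dopamine and serotonin and *Fosl2* a subunit of AP-1. *Fosl2*, for one, was at -0.13 and 0.12 on the wild-type arrays and at -0.73 and -0.63 in Trp53-/-. With 4 arrays this ranking describes likeness and has no test.

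Other genes of the pathway were counted from lists of regulators and targets, with loess normalization and at *q* below 0.05. With median centring 67.6% of all genes passed in wild-type, 13490 upwards and 181 downwards, and 74.9% in Trp53-/-, 14957 upwards and 196 downwards, so the directions that turned are named beside the genes. With the log ratios of the scanner software, 10 of 18 calls in wild-type, 14 of 22 in Trp53-/- and all 8 of the difference were lost among the genes picked for each comparison, members included. Calls of these genes in a comparison for which they were not picked were not recomputed under the alternatives. The counts below stand beside 13.6% of all genes upwards and 11.3% downwards in wild-type, 12.8% and 10.5% in Trp53-/-, and 1.76% for the difference. In that difference 2911 of all 20224 genes had an unadjusted *p* below 0.05 by limma. Among 13 further NRF2 regulators, *Btrc*, a ubiquitin ligase subunit that also targets NRF2, rose in wild-type by a log2 ratio of 0.51 (*q* = 0.00485) and was the only one to pass there. In Trp53-/- *Btrc* (0.32) and *Dpp3* (0.28) rose, and the small Maf partners of NRF2 fell, *Mafk* by 0.33 and *Mafg* by 0.31, which with median centring became 0.04 and 0.60, where the median of all genes was 0.63. Each of these 4 calls was lost without 1 or both Trp53-/- arrays, and of 18 ways of processing *Mafk* passed in 15, *Btrc* in 13, *Dpp3* in 11 and *Mafg* in 12, counting median centring, where its sign was turned. *Btrc* was at 0.13 (*q* = 0.370) without Trp53-/- replicate 1, and without replicate 2 *Dpp3* was at 0.13 (*q* = 0.463), *Mafg* at -0.17 (*q* = 0.383) and *Mafk* at -0.27 (*q* = 0.220). None of the 13 differed in response between the genotypes at *q* below 0.05 by limma, and 1 had an unadjusted *p* below 0.05.

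Of 28 further NRF2 targets, 4 rose and 6 fell in wild-type, and 4 rose and 6 fell in Trp53-/-. In the difference between genotypes 6 of the 28 had an unadjusted *p* below 0.05 by limma. *Akr1b8*, an aldo-keto reductase, was near 0 in wild-type (0.07 and -0.04) and far below it on both Trp53-/- arrays (-1.20 and -1.15). There it fell by 1.17 (*q* = 7.08e-05). The fall passed under all 18 ways of processing tried, and with median centring it was -0.34 (*q* = 0.0250). The difference between genotypes was 1.19 (SE 0.13; *q* = 0.00161), the only one of the 28 to pass, and it was 0.96 (*q* = 0.0689) with median centring and 1.24 (*q* = 0.207) with the scanner software's log ratios. The fall was -1.20 (*q* = 0.000397) and the difference 1.22 (*q* = 0.00362) without Trp53-/- replicate 2. In wild-type, *Blvrb* (-0.67), a biliverdin reductase, and *Akr1b3* (-0.55) fell, while *Mgst1* (0.54), a microsomal glutathione transferase, and *Ephx1* (0.49), the microsomal epoxide hydrolase, rose. *Idh1*, which supplies NADPH, also fell there (-0.48, *q* = 0.00317). With median centring *Akr1b3* was at 0.14 and *Blvrb* at -0.08 (*q* = 0.205), and without wild-type replicate 1 *Ephx1* was at 0.34 (*q* = 0.0793). In Trp53-/- *Akr1b3* also fell (-0.28, *q* = 0.0303) and *Mgst1* also rose (0.26, *q* = 0.0468). The efflux pump *Abcc4* rose there by 0.55 (*q* = 0.00201), while *Blvrb* (-0.38) and *Idh1* (-0.38) fell. With median centring the last 2 were at 0.41 and 0.33, and their calls were lost without either Trp53-/- array (*q* between 0.0580 and 0.115).

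Among 19 other glutathione genes, 5 rose and 3 fell in wild-type, and 1 rose and 10 fell in Trp53-/-. The difference between genotypes was above 0 in 16 of the 19, with a median of 0.31 beside -0.01 over all genes. Of these genes 9 had an unadjusted *p* below 0.05 by limma for the difference. *Chac1*, which degrades glutathione, was at -0.35 and -0.08 on the wild-type arrays and fell in Trp53-/- by 0.94 (*q* = 0.000261), and *Gpx3*, a secreted glutathione peroxidase, fell in Trp53-/- by 0.61 (*q* = 0.00253). Neither fall passed with median centring (-0.24, *q* = 0.0674, and -0.0070, *q* = 0.250). Both genes differed between the genotypes, *Chac1* by 0.73 (*q* = 0.0264) and *Gpx3* by 0.75 (*q* = 0.0335), but of 17 ways of processing they passed in 10 and 11. Both were lost with an offset of 16 (*q* = 0.114 and 0.123), with median centring (0.48, *q* = 0.614, and 0.57, *q* = 0.511) and with the scanner's log ratios (*q* = 0.259 and 0.268). The difference of *Chac1* was 0.68 (*q* = 0.0701) without Trp53-/- replicate 1, 0.78 (*q* = 0.0600) without replicate 2 and 0.59, just past the threshold, without wild-type replicate 2, and that of *Gpx3* was 0.66 (*q* = 0.116) without Trp53-/- replicate 2 and 0.58 (*q* = 0.0568) without wild-type replicate 1. *Mgst3* fell in Trp53-/- by 0.61 (*q* = 0.00144), and with median centring it was at 0.07. These falls passed without Trp53-/- replicate 2, with *Chac1* at -0.99, *Gpx3* at -0.52 and *Mgst3* at -0.52. *Gstt1*, a glutathione transferase, was 2.31-fold lower with PJ34 in Trp53-/- (*q* = 0.00690), but its arrays lay far apart, and without replicate 2 it was at -0.41 (*q* = 0.0848).

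In wild-type the largest rise among these glutathione genes was that of *Hagh*, the glyoxalase that releases glutathione from its adduct (0.59, *q* = 0.00256). *Gsto1* (0.35) also rose, and *Mgst3* fell (-0.30, *q* = 0.0247). The peroxidase *Gpx1* fell in both genotypes, in Trp53-/- with a log2 ratio of -0.53 (*q* = 0.00265). In wild-type *Gpx1* (-0.37) and the peroxidase *Gpx7* (-0.35) fell, which with median centring were at 0.37 and 0.05. The calls of *Gsto1* and *Gpx1* were lost without either wild-type array (*q* between 0.0604 and 0.0963), and *Gpx7* was at -0.26 (*q* = 0.174) without wild-type replicate 2.

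Of 16 other thioredoxin and peroxiredoxin genes, 2 rose and 1 fell in wild-type and 2 rose and 4 fell in Trp53-/-. *Txn1*, the substrate of *Txnrd1*, rose in wild-type by 0.43 (*q* = 0.00729) and in Trp53-/- by 0.28 (*q* = 0.0428), and the mitochondrial reductase *Txnrd2* rose by 0.25 (*q* = 0.0433) and 0.28 (*q* = 0.0322). *Txn1* was at 0.35 (*q* = 0.0759) without wild-type replicate 1, and in Trp53-/- at 0.15 (*q* = 0.330) without replicate 1 and 0.40 (*q* = 0.0898) without replicate 2. The *Txnrd2* call in wild-type was lost without any of the 4 arrays (*q* between 0.0502 and 0.313), and that in Trp53-/- without either Trp53-/- array (*q* = 0.197 and 0.160). Of 18 ways of processing the wild-type call of *Txnrd2* passed in 7 and its Trp53-/- call in 13, and that of *Txn1* in 16 and 11. *Prdx4*, a peroxiredoxin of the endoplasmic reticulum, fell in wild-type by 0.39 (*q* = 0.00729), which was -0.36 (*q* = 0.0684) without wild-type replicate 1 and 0.27 with median centring. In Trp53-/- *Txndc17* fell by 0.36 and the methionine sulfoxide reductase *Msrb1* by 0.27, which with median centring were at 0.67 and 0.60, and without replicate 2 they were at -0.23 (*q* = 0.317) and -0.39 (*q* = 0.101). Without replicate 1 *Msrb1* was at -0.16 (*q* = 0.327). Of 18 ways of processing *Txndc17* passed in 13 and *Msrb1* in 9, each counting median centring, where the sign was turned. None of the 16 differed between the genotypes at *q* below 0.05 by limma, and 1 had an unadjusted *p* below 0.05.

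Of 5 genes for superoxide dismutases, their copper chaperone and catalase, the chaperone *Ccs* rose in wild-type by 0.51 (*q* = 0.00277), and the extracellular enzyme *Sod3* fell in Trp53-/- by 0.48 (*q* = 0.00710). Without Trp53-/- replicate 2 *Sod3* was at -0.45 (*q* = 0.0834), and with median centring at -0.05 (*q* = 0.213). None of the 5 differed between the genotypes at *q* below 0.05 by limma, and 2 had an unadjusted *p* below 0.05.

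Of 7 p53-linked antioxidant genes, listed with their dependence on p53 already known, 4 rose and 1 fell in wild-type, while in Trp53-/- none rose and 1 fell. *Trp53inp1* was at 2.04 and 1.37 on the wild-type arrays and at 0.16 and 0.37 in Trp53-/-, a difference of 1.45 (SE 0.20; *q* = 0.00618). *Sesn2*, a sestrin, was at 1.24 and 0.78 on the wild-type arrays and at -0.09 and 0.10 in Trp53-/-, a difference of 1.01 (SE 0.17; *q* = 0.0144). Both differences missed the threshold with an offset of 16 (*q* = 0.0860 and 0.0960), and that of *Sesn2* with median centring (0.84, *q* = 0.153). *Sesn3* (0.74) and *Aldh4a1* (0.57), a mitochondrial dehydrogenase, also rose in wild-type. *Sesn1* fell in both genotypes, in wild-type with a log2 ratio of -0.29 (*q* = 0.0222). In Trp53-/- it fell by 0.39, which was 0.36 with median centring. *Aldh4a1* was at 0.37 (*q* = 0.0720) without wild-type replicate 1, and the call of *Sesn1* in Trp53-/- was lost without either array (*q* = 0.0604 and 0.0862). *Sesn3* (0.67, *q* = 0.0341) and *Aldh4a1* (0.83, *q* = 0.0427) also differed between the genotypes, each in 9 of 17 ways of processing. Both were lost with no background correction (*q* = 0.0541 and 0.0697), an offset of 16 (*q* = 0.119 and 0.142) and median centring (*q* = 0.633 and 0.311), and *Aldh4a1* with Benjamini-Hochberg adjustment (0.0582). Without Trp53-/- replicate 1 these were at 0.72 (*q* = 0.0505) and 0.61 (*q* = 0.133), while *Sesn3* was also lost without replicate 2 (0.61, *q* = 0.119) and without wild-type replicate 1 (0.56, *q* = 0.0690). The difference of *Trp53inp1* was 1.55 (*q* = 0.00489) and that of *Sesn2* 1.10 (*q* = 0.0177) without Trp53-/- replicate 2. The difference in *Srxn1*, 0.99, was close in size to that of *Sesn2*, but *Sesn2* rose in wild-type, by 1.01 (*q* = 0.000272), and *Srxn1* fell in Trp53-/-, where it had the higher untreated mean.

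In untreated cells 9.33% of all genes tested differed between Trp53-/- and wild-type at *q* below 0.05. Of these lists, 1 of 13 NRF2 regulators, 3 of 27 further targets and 3 of 19 other glutathione genes did. So did 1 of 16 other thioredoxin and peroxiredoxin genes, 0 of 5 superoxide dismutase and catalase genes and 3 of 7 p53-linked genes. *Akr1b8* was higher in Trp53-/- by a log2 difference of 0.90 (*q* = 0.0297), as were *Nfe2l1*, a relative of NRF2, by 0.91 (*q* = 0.0329), *Txnip*, an inhibitor of thioredoxin, by 0.88 (*q* = 0.0310), *Gstm1* by 0.74 and *Glo1* by 0.79. *Chac1* was 2.21-fold higher (*q* = 0.0222). Control values are also the denominators of the PJ34 ratios, so these levels of *Akr1b8* and *Chac1* are not separate from their falls in Trp53-/-. *Ephx1* was 2.25-fold lower in Trp53-/- (*q* = 0.0188) and *Gpx7* 2.17-fold lower (*q* = 0.0267). Of the p53-linked genes, *Trp53inp1* was lower by a log2 difference of -2.61 (*q* = 0.00774), *Sesn2* by -1.03 (*q* = 0.0229), and *Sesn3* was higher by 0.70 (*q* = 0.0470). All but *Trp53inp1* lost the call when either Trp53-/- array was left out, with *q* between 0.192 and 0.769. In the control channel centred on its median, limma called 0 of 17242 genes at *q* below 0.05, while 2647 had an unadjusted *p* below 0.05.

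**Figure D4:**
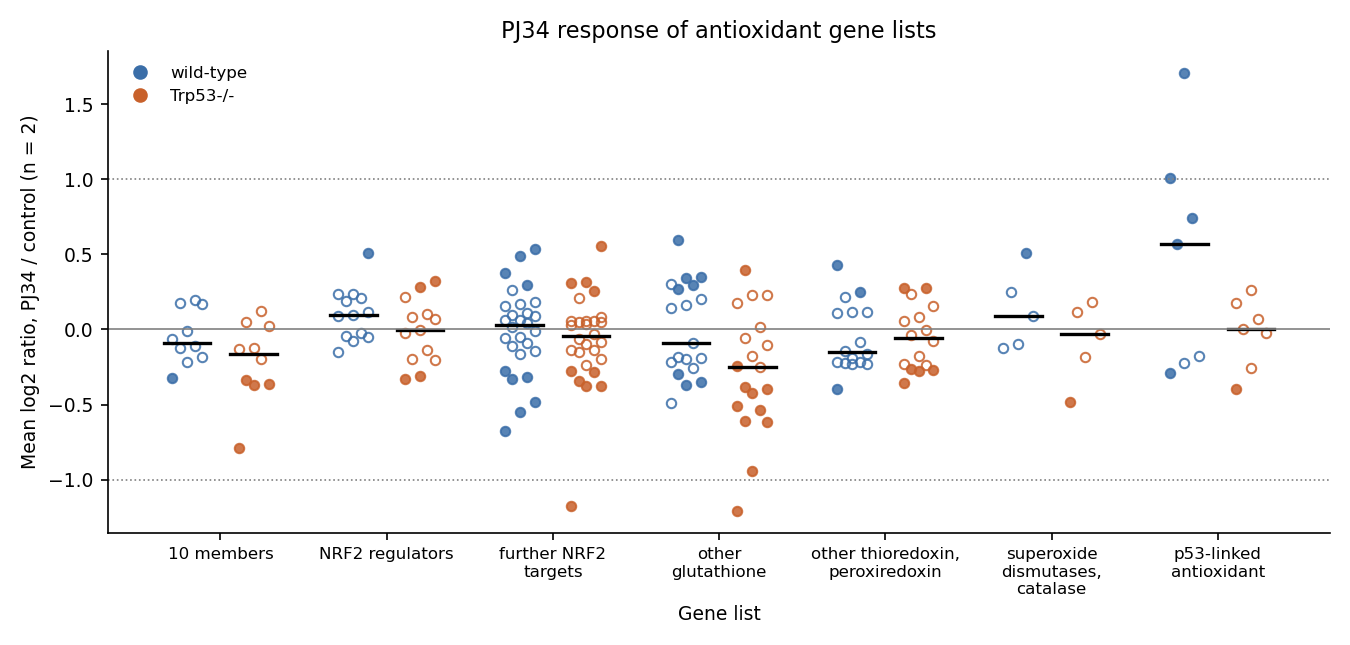
Mean log2 ratio of PJ34 over control (vertical axis, n = 2 arrays) of the genes of each list (horizontal axis) in wild-type and Trp53-/- after loess normalization; filled points have *q* below 0.05, black bars are list medians, and dotted lines mark a 2-fold change. The members centre at -0.09 and -0.16, and *Trp53inp1* at 1.71 in wild-type is the highest point; with median centring the member medians were 0.55 and 0.54, where all genes stood at 0.46 and 0.63.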

How the data were processed

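RNA of PJ34-treated (Cy5) and untreated (Cy3) NSPCs was hybridized to 4 Agilent mouse arrays, 2 per genotype, each from an independent RNA preparation. Arrays were grouped by the genotype in the labels. Per the labels, spots were read with version 10.7.3.1 of Feature Extraction. The deposited intensity values used here are the mean brightness of a spot and the median of its local background, neither corrected. The deposited log10 ratios and the processed signals of the same software served as alternatives only. A table with 4 columns that no label matches to an array was not used here. Symbols came through RefSeq accessions for 26300 of the 55681 probes, otherwise from the files. Probe positions are on mm9.

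Background was corrected by normexp with an offset of 50, and ratios were normalized by loess (limma 3.58.1, R 4.3.3). Control and outlier spots (228 to 276 per array) were left out. Probes were kept when both arrays of a genotype had a channel well above background (27037 probes, 20224 genes). A gene was read from its brightest probe. A mean per genotype was fitted over the 4 arrays and moderated (10.28 degrees of freedom in all). Untreated levels are log2 control-channel values after Aquantile scaling, tested where both arrays of a genotype passed in that channel (17242 genes). *q* is Storey's, over all genes. Pathway genes were named when over 2-fold, and otherwise up to 4 of each list with the largest change at *q* below 0.05 in each comparison. A gene picked for the PJ34 response of 1 genotype is also given for the other where it passed there. Of the 5 genes most like *Srxn1* over the arrays, 1 is not reported here. The members and lists were chosen with earlier results of these data known. On simulated data the 4 fits recovered 184, 193, 169 and 126 of 200 genes changed by a log2 of 2, the last for untreated levels, with at most 1 false call. Calls were made there at over 2-fold with *p* and *q* below 0.05, and all other genes were simulated without change. These counts therefore do not describe the smaller changes called here at *q* below 0.05 alone. The number of arrays limits the precision. The *p*-values of limma rest on a spread between these preparations that was shared by both genotypes and moderated over all genes. For ratios 2 of the 10.28 degrees of freedom came from a gene's own arrays.

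Alternatives were other background corrections, scalings, filters, probe rules, variance models and adjustments, a replicate block, and leaving out each array. Same-numbered arrays did not deviate together (correlation -0.18 for ratios, 0.08 for untreated levels), so the numbers were not taken as pairs.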

Additional observations from a re-analysis of the deposited data

Results flagged for a closer look

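The PJ34 response of *Srxn1* differed between the genotypes by the test of the difference itself. The wild-type mean was 0.20 and the Trp53-/- mean -0.79 on the log2 scale (n = 2 arrays each), a difference of 0.99 (limma, *q* = 0.00653), with both wild-type arrays above both Trp53-/- arrays. It was the only one of the 10 members to differ. With groups of 2 arrays no single array could be tested as an outlier.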

How the results depend on the processing

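Each result was computed again under the alternatives that apply to it, and 161 of 195 recomputed counts and medians of the members stayed within 1.5 times the count reported or, for a median, within the spread between replicates. In wild-type the members with *q* below 0.05 numbered 1. They numbered 0 with the scanner's log ratios, 2 with the strict filter, which left 9 to test, and 2 with the mean of a gene's probes. Of all genes 10.8%, 35.1% and 24.7% passed in these settings. Members passing were 9 with median centring and 5 with centring over the tested genes, the last chosen after seeing the data. There 67.6% and 51.1% of all genes passed. In Trp53-/- the members numbered 4, against 1 with the scanner's log ratios and 8 with median centring, 2 of these over 2-fold, where 7.54% and 74.9% of all genes passed. For the difference between genotypes they numbered 1, against 0 with an offset of 16, 0 with the scanner's log ratios and 0 with median centring. The member median moved in wild-type from -0.09 to 0.55 with median centring and 0.093 with centring over the tested genes. In Trp53-/- it moved from -0.16 to -0.21 with an offset of 16, -0.27 with the scanner's log ratios, 0.54 with median centring, -0.20 with the strict filter and -0.085 with centring over the tested genes. The median difference moved from 0.03 to -0.12 with median centring. With 1 array left out, the members passing numbered 0 to 1 in wild-type, 1 to 4 in Trp53-/-, 1 to 2 for the difference and 0 to 4 for the untreated level, those over 2-fold 0 to 1 for the difference and for the untreated level, and the medians ran from -0.091 to -0.032, from -0.20 to -0.15, from 0.048 to 0.13 and from -0.15 to 0.06.

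With median centring, where the median of all genes was 0.46 in wild-type and 0.63 in Trp53-/-, directions turned. In wild-type *Nfe2l2* was then at 0.57, *Keap1* 0.53, *Gclm* 0.34, *Txnrd1* 0.37, *Gsr* 0.44, *Prdx1* 0.73, *Akr1b3* 0.14, *Gpx1* 0.37, *Gpx7* 0.051 and *Prdx4* 0.27. In Trp53-/- *Nfe2l2* was at 0.49, *Hmox1* 0.49, *Gclm* 0.49, *Txnrd1* 0.59, *Srxn1* 0.054, *Gsr* 0.80, *Mafk* 0.038, *Mafg* 0.60, *Blvrb* 0.41, *Idh1* 0.33, *Mgst3* 0.068, *Txndc17* 0.67, *Msrb1* 0.60 and *Sesn1* 0.36. With centring over the tested genes *Prdx1* was at 0.27 in wild-type and *Txndc17* at 0.046 in Trp53-/-. The cause was not tested.

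Among all genes, those with *q* below 0.05 numbered 5024 in wild-type, against 2185 with the scanner's log ratios, 13671 with median centring and 10341 with centring over the tested genes, and 4720 in Trp53-/-, against 1525, 15153 and 14234. Those also over 2-fold numbered 101 in wild-type, against 560, 1181 with median centring and 166 with an offset of 16, and 73 in Trp53-/-, against 527, 3408 and 130. At *q* below 0.05 without a fold limit, Benjamini-Hochberg adjustment gave 3101 genes in Trp53-/-. For the difference the genes with *q* below 0.05 numbered 355. They numbered 0 with the scanner's log ratios, 115 with median centring, 221 with centring over the tested genes, 39 with an offset of 16 and 215 with no background correction. For untreated levels the genes with *q* below 0.05 numbered 1608, against 601 with Benjamini-Hochberg adjustment, 973 with no filter and 0 with median centring of the control channel. Without wild-type replicate 1 or 2 the counts were 2884 and 3014 in wild-type, 648 and 601 for the difference and 7560 and 9497 for untreated levels, and without Trp53-/- replicate 1 or 2 they were 2321 and 1320 in Trp53-/-, 380 and 162 for the difference and 85 and 42 for untreated levels.

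With the replicate number as a block, the members passing were 1, 4, 1 and 1 in the order above, the last being *Srxn1* (untreated difference 0.70, *q* = 0.0394), and no other member's call changed. Over all genes the block moved the difference to 575 and the untreated level to 2705, and 21.8%, 20.4%, 2.84% and 15.7% passed in the same order. A crossed pairing, chosen after seeing the data, gave 2, 4, 2 and 0 members, where 32.7%, 31.9%, 5.58% and 11.7% of all genes passed. Signal over background limits *Nqo1*.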
